A study of Mus musculus with 32 samples.

Results

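Igkv15-103 and Igkv16-104 are neighbouring variable gene segments of the mouse Igκ light-chain locus, and they are the 2 members described here of the 112 segments counted on each allele in both tables of Igκ rearrangements. They were chosen by name, as segments for which the study marked an active allele in every clone before rearrangement, and all of their B6 and Cast counts in 10 libraries were used. Each library came from cells of F1 hybrids between C57BL/6 (B6) and Castaneous (Cast) mice, in which single-nucleotide differences assign a read to its allele. In the 48 h table there was 1 library from each of 5 pre-B-cell clones (3, 4, 8, B52 and E9-3), each grown from a single bone marrow cell of females 8 to 12 weeks old by limiting dilution on irradiated ST2 feeder cells with IL-7 and then induced to rearrange by removal of IL-7 for 48 h, and 1 library from a pre-B pool. The labels call the pool cultured pre-B cells, whereas the methods describe selected bone marrow cells of a B6/Cast female 12 weeks old as the only source of repertoire RNA besides the clones, with no time without IL-7. The time course held 1 library of clone 4 for each of 4 durations of IL-7 removal, of 12, 24, 36 and 48 h.

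A light chain is assembled by joining a Vκ segment to a Jκ segment upstream of the constant exon, and each cell can use either parental allele. The RAG recombinase cuts at the recombination signal sequence (RSS) next to each segment, which consists of a heptamer, a spacer and a nonamer. Before rearrangement an accessible Vκ segment carries acetylated histones and is transcribed as non-coding RNA (ncRNA). The study had called an allele active from histone H3 acetylation, ncRNA and a lack of H3K27me3 in pre-B cells. For Igkv15-103 its summary picture marks Cast as active in clones 3, 4, 8 and E9-3, B6 in clone B52 and both alleles in the pool. For Igkv16-104 it marks B6 as active in clone 4 and Cast in the other 4 clones and the pool. The counts below were set against these alleles.

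In the GRCm38 genome (mm10), with GENCODE M21 annotation, Igkv16-104 lies on the plus strand of chromosome 6 at chr6:68425575-68426072. Its leader exon covers bases 68425575 to 68425653 and its V exon bases 68425774 to 68426072. Igkv15-103 lies on the same strand at chr6:68437440-68437925, with a leader exon from 68437440 to 68437516 and a V exon from 68437628 to 68437925. The genes are 11367 bases apart with 0 annotated Igκ genes between them. They are the segments at positions 26 and 27 from the distal end of the 111 counted segments found by name, at 2.30 and 2.29 Mb from the constant exon Igkc. Both share their strand with Igkc, as 41 of the 111 segments do, and segments of this orientation join Jκ by deletion of the intervening DNA rather than by inversion. The RSS of each member directly follows its V exon and is shown because it is the sequence at which joining begins, with the heptamer and the nonamer in capitals around a spacer of 12 bases.
Igkv15-103: CACAGTGatataagtcatgACACAAACC
Igkv16-104: CACAGTGatacaagtcataACAAAAACC
The first covers chr6:68437926-68437953 and the second chr6:68426073-68426100, both on the plus strand of the RefSeq sequence of GRCm38. Counted from the first base of the heptamer, and going from Igkv16-104 to Igkv15-103, the sequences differ by C11T and A19G in the spacer and by A23C in the nonamer. Igkv16-104 thus holds both the heptamer CACAGTG and the nonamer ACAAAAACC, read on the strand of the gene directly after the exon. These exact letters occur together in 30.6% of the 111 segments, the heptamer in 82.9% and the nonamer in 32.4%. Igkv15-103 holds the heptamer and differs from the nonamer at the base given. The octamer ATTTGCAT, searched on both strands within 150 bases before the gene start and overlapping neither of these elements, occurred in 71.2% of the 111 segments, and in both members it began 71 bases before the start.

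The V exons are given because reads were assigned to a segment and an allele by this sequence, with the bases after the conserved cysteine codon, the V part of the third complementarity-determining region, in capitals.
Igkv15-103: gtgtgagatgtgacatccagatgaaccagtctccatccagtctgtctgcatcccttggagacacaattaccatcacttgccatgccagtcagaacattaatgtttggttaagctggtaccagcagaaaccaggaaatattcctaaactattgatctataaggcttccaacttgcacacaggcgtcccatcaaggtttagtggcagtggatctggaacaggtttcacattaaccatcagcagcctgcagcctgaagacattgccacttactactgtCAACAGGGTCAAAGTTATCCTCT
Igkv16-104: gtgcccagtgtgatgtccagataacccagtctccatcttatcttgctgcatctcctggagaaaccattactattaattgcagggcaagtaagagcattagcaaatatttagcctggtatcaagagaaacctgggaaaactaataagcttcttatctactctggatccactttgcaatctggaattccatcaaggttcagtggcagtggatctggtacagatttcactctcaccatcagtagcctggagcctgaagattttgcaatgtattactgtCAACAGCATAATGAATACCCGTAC
These are the B6 sequences, on the plus strand of the RefSeq sequence of GRCm38, and the capitals mark 23 and 24 bases. Among the V exons of the counted segments, the closest relative of Igkv15-103 was Igkv14-126 with 77.0% identity over the aligned bases. The closest relative of Igkv16-104 was Igkv11-125 with 76.6% identity. The members were 73.6% identical to each other. Only B6 sequences of the 111 counted segments found by name were compared, not Cast sequences or uncounted segments. Whether reads were split between similar segments was not tested. The primers of the study's restriction assay, placed on the same genome, gave a product of 169 bp for Igkv15-103 at chr6:68437825-68437993. On B6 this product holds 1 HincII site, GTCAAC, which yields fragments of 79 and 90 bp. The product for Igkv16-104 was 173 bp long, at chr6:68425966-68426138, with 0 HinfI sites on B6.

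Libraries of the 48 h table held 34291 to 320951 reads, and those of the time course 1174 to 10958. A limit of 3 reads was taken as the smallest contribution that can be told from 0, which equals 0.000935% to 0.00875% of a library in the 48 h table and 0.0274% to 0.256% in the time course. The B6 allele held 51.2% to 71.8% of all reads in the 48 h table and 76.2% to 84.2% in the time course, so a B6 share of a segment was also computed with both alleles brought to equal totals (scaled share). Intervals are 95% Wilson intervals. The reads were amplified by PCR without molecular identifiers, so intervals and limits cover counting error only. Every test on reads compares libraries and not conditions, since a clone had a single library per table, and clone 4 at 48 h was the only condition sequenced again.

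Igkv15-103 was the second most abundant segment of the pool, with 13601 reads and a contribution of 4.24% of the library. Its contribution was 1.25%, 0.790%, 1.84%, 1.18% and 1.64% in clones 3, 4, 8, B52 and E9-3. The pool lay above all 5 clones, at 3.17 times their mean of 1.34% ± 0.411 (SD, n = 5) and 2.31 times the highest of them. Of the 105 segments with enough reads, 21% were likewise higher in the pool than in every clone, and Igkv15-103 ranked 7 of 105 by the ratio of the pool to the mean of the clones, against a median ratio of 0.971. The difference was larger on the B6 allele. The B6 contribution was 2.02% in the pool and 0.283%, 0.289%, 0.228%, 0.529% and 0.388% in clones 3, 4, 8, B52 and E9-3, so the pool was at 5.89 times the mean of the clones. The Cast contribution was 2.22% in the pool and 0.962%, 0.501%, 1.61%, 0.648% and 1.26% in the same clones, at 2.23 times their mean. Within its allele Igkv15-103 ranked 5 on both alleles of the pool, whereas in the clones its ranks ran from 29 to 64 on B6 and from 7 to 17 on Cast.

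Igkv16-104 contributed less in the pool than Igkv15-103 and varied more among the clones. Its contribution was 0.709% in the pool, where it ranked 46, and 1.46%, 0.303%, 0.439%, 2.57% and 1.26% in clones 3, 4, 8, B52 and E9-3. The mean of the clones was 1.21% ± 0.912 (SD, n = 5), the highest clone was at 8.47 times the lowest, and the pool lay within their range at 0.588 times their mean. For Igkv15-103 the highest clone was at 2.32 times the lowest. Clones 3, B52 and E9-3 each lay above clones 4 and 8 for Igkv16-104, an order shared by 13.3% of 105 segments. On B6 its contribution was 0.625%, 0.193%, 0.125%, 1.52% and 0.723% in clones 3, 4, 8, B52 and E9-3, and on Cast 0.834%, 0.110%, 0.313%, 1.05% and 0.537%. Both alleles were therefore high in clone B52 and low in clones 4 and 8. The members did not rise and fall together across clones. Reads of Igkv15-103 were 5.98 times those of Igkv16-104 in the pool, 4.19 times in clone 8 and 2.61 times in clone 4, but 1.31 times in clone E9-3, 0.854 times in clone 3 and 0.459 times in clone B52.

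**Figure D1:**
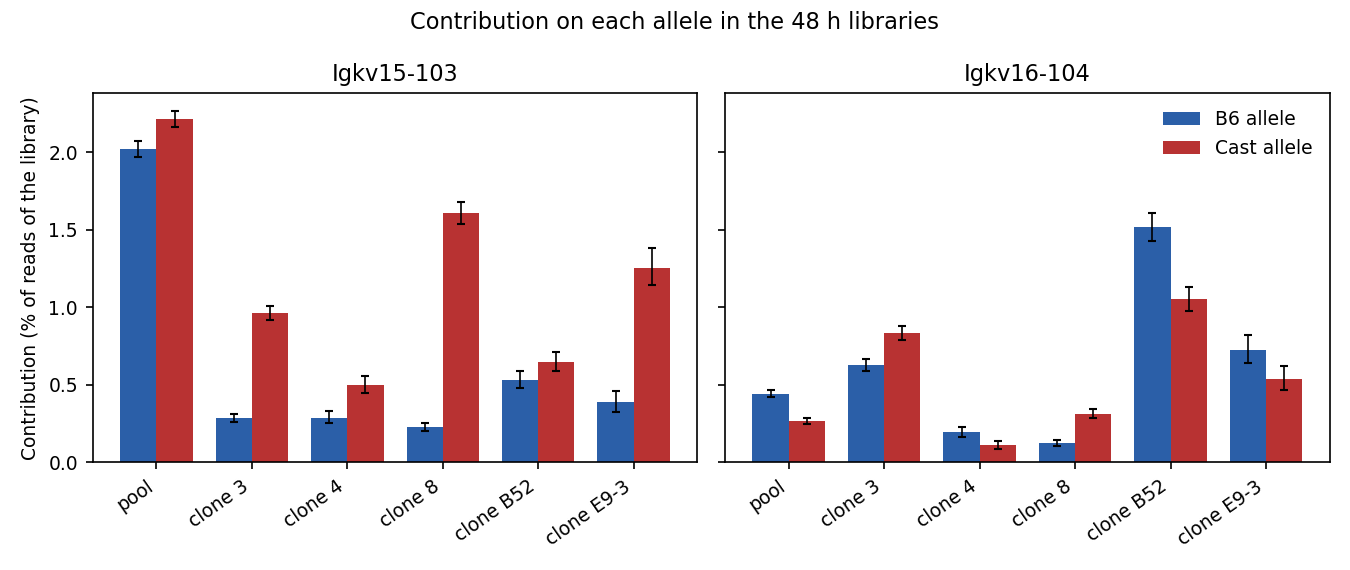
Contribution of Igkv15-103 (left) and Igkv16-104 (right) on the B6 allele (blue) and the Cast allele (red), as a percent of all reads of each 48 h library, with 95% Wilson intervals as error bars. Igkv15-103 is highest in the pool on both alleles, at 2.02% and 2.22%, while Igkv16-104 is highest in clone B52, at 1.52% and 1.05%.

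Contributions on each allele were compared between all 15 pairs of these 6 libraries by Fisher's exact test, two-sided, with Benjamini-Hochberg adjustment over all segments, alleles and pairs. Igkv15-103 differed in 14 of 15 pairs on B6 and in 15 of 15 on Cast, and Igkv16-104 in 15 of 15 on each allele, beside 86.5% of the 2560 tests over all segments. The pair that was not called was that of clones 3 and 4 for Igkv15-103 on B6, with contributions of 0.283% and 0.289% (adjusted p = 0.809, exact). When chi-square statistics were divided by the excess variation between both libraries of clone 4 at 48 h, a factor of 27.9, the count fell to 5 and 7 of 15 for Igkv15-103 on B6 and Cast and to 9 and 6 of 15 for Igkv16-104, beside 31.7% of all tests. On the B6 allele of Igkv15-103 the 5 remaining pairs were those of the pool with each clone. The factor came from libraries of 64672 and 10958 reads and was not adjusted for depth. A fixed relative difference gives a larger chi-square in deeper libraries. The factor may therefore be too small for pairs such as the pool and clone 3 (320951 and 165679 reads). These 5 calls are not shown to exceed variation between libraries.

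As a description of which other segments varied most like each member, Pearson's r was taken over 12 values, the B6 and Cast contributions in the pool and the clones on a scale of log2(percent + 0.01), with 104 other segments. These values share libraries and totals. Because both alleles are among them, a lasting difference between alleles enters r as well as variation among libraries. Igkv15-103 was closest to Igkv9-124 (r = 0.79), Igkv2-137 (r = 0.71) and Igkv13-84 (r = 0.60). Igkv16-104 was closest to Igkv3-1 (r = 0.76), Igkv3-12 (r = 0.68) and Igkv3-7 (r = 0.66), segments of the Vκ3 family at the Jκ-proximal end of the locus. The members had r = 0.13 with each other.

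In the pool, Igkv15-103 was read at nearly equal levels from both alleles and Igkv16-104 more from B6. The B6 share of Igkv15-103 was 47.7% (6489 B6 and 7112 Cast reads, interval 46.9 to 48.5). It ranked 72 of 101 segments from the highest share, beside a median of 65.5%, and 16 of the 101 lay between 40% and 60%. The B6 share of Igkv16-104 was 62.6% (1425 and 851 reads, interval 60.6 to 64.6) and ranked 56 of 101, close to the 57.4% of the whole library. The scaled shares were 40.4% and 55.4%. The study marked both alleles of Igkv15-103 as active in the pool but only Cast for Igkv16-104, whose majority of reads was on B6 by either measure.

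In the 48 h table the B6 share of Igkv15-103 was higher in clone B52, the only clone with an active B6 allele, than in the other clones, but did not exceed 50% in any of them. It was 45.0% in clone B52, from 366 B6 and 448 Cast reads (interval 41.6 to 48.4). Clone 4 followed with 36.6% (187 and 324 reads), then clone E9-3 with 23.6% (133 and 431), clone 3 with 22.7% (469 and 1594) and clone 8 with 12.4% (271 and 1915). Clone B52 lay above all 4 other clones and 21.1 percentage points above their mean of 23.8% ± 9.91 (SD, n = 4). With the other 48 h library of clone 4, that of the time course, clone 4 was at 96.8% and above clone B52, and the difference of clone B52 from the mean was 6.09 points. For 16.3% of 86 segments clone B52 was likewise the highest, and the difference of Igkv15-103 ranked 6 of 86. The scaled share was 29.8% in clone B52 and 21.9%, 21.0%, 18.5% and 7.71% in clones 3, E9-3, 4 and 8, so that clone B52 remained the highest, with a smaller difference of 12.5 points, as it was for 14% of segments.

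Clone B52 differed from each of the other 4 clones by Fisher's exact test adjusted over 997 tests of 10 pairs of clones, with exact adjusted p = 3.91e-30 against clone 3, 0.00592 against clone 4, 1.95e-75 against clone 8 and 1.14e-15 against clone E9-3. Over all 10 pairs Igkv15-103 was called in 9, beside 57.1% of all tests, and only clones 3 and E9-3, with shares of 22.7% and 23.6%, were not called (exact adjusted p = 0.933). With statistics divided by the excess variation between both libraries of clone 4, a factor of 19.0, the differences of clone B52 from clones 3 and 8 remained called and those from clones 4 and E9-3 did not. Of all 10 pairs 3 were then called for Igkv15-103, beside 15.4% of all tests. This factor was not adjusted for depth either, and may be too small for segments with more reads than in the time course.

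Set against the active allele, the majority of Igkv15-103 reads in the 48 h table fell on it in 4 of 5 clones, those with an active Cast allele. In clone B52 the active B6 allele held the minority of reads. The Cast allele held the majority in all 5 clones, so that a rule that always named Cast would match the same 4.

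The B6 share of Igkv16-104 was 63.8% in clone 4, where B6 was the active allele, from 125 B6 and 71 Cast reads (interval 56.8 to 70.2). Of the clones with an active Cast allele, clone B52 had 59.0% (1048 and 727 reads), clone E9-3 57.4% (248 and 184), clone 3 42.9% (1036 and 1381) and clone 8 28.5% (149 and 373). Clone 4 lay above all 4 others and 16.8 points above their mean of 47.0% ± 14.3 (SD, n = 4), or 10.7 points without clone 8 and 50.5 points with the time-course library of clone 4, at 97.5%. For 29.1% of 86 segments clone 4 was likewise the highest, and the median difference over segments was 5.84 points, since 71.8% of all reads of this library were on B6. The scaled shares came in another order, with 53.8%, 42.8%, 41.7%, 40.9% and 19.1% in clones E9-3, B52, 3, 4 and 8. Clone 4 then exceeded the mean of the others by 1.58 points and lay below 3 of them, whereas 9.3% of segments had their highest scaled share in clone 4.

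By Fisher's exact test clone 4 differed from clone 3 (exact adjusted p = 7.21e-08) and clone 8 (6.85e-17), but not from clone B52 (0.339) or clone E9-3 (0.219). With excess variation 0 of the 4 pairs were called. Of all 10 pairs that of clones 8 and B52 alone was, beside 15.4% of all tests. Igkv16-104 was called in 7 of 10 pairs by Fisher's exact test, beside the same 57.1%.

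For Igkv16-104 the majority of reads fell on the active allele in 3 of 5 clones, those of clones 3, 4 and 8. In clones B52 and E9-3 the active Cast allele held 41.0% and 42.6% of the reads. With scaled alleles there were again 3 of 5 matches, but the mismatches were clones 4 and E9-3. Because active alleles were known for only 5 clones and each clone had 1 library, no test was made of these matches. Across Vκ segments the study reports a positive correlation between the allelic ratios of ncRNA and of rearrangements, a measure other than these matches.

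**Figure D2:**
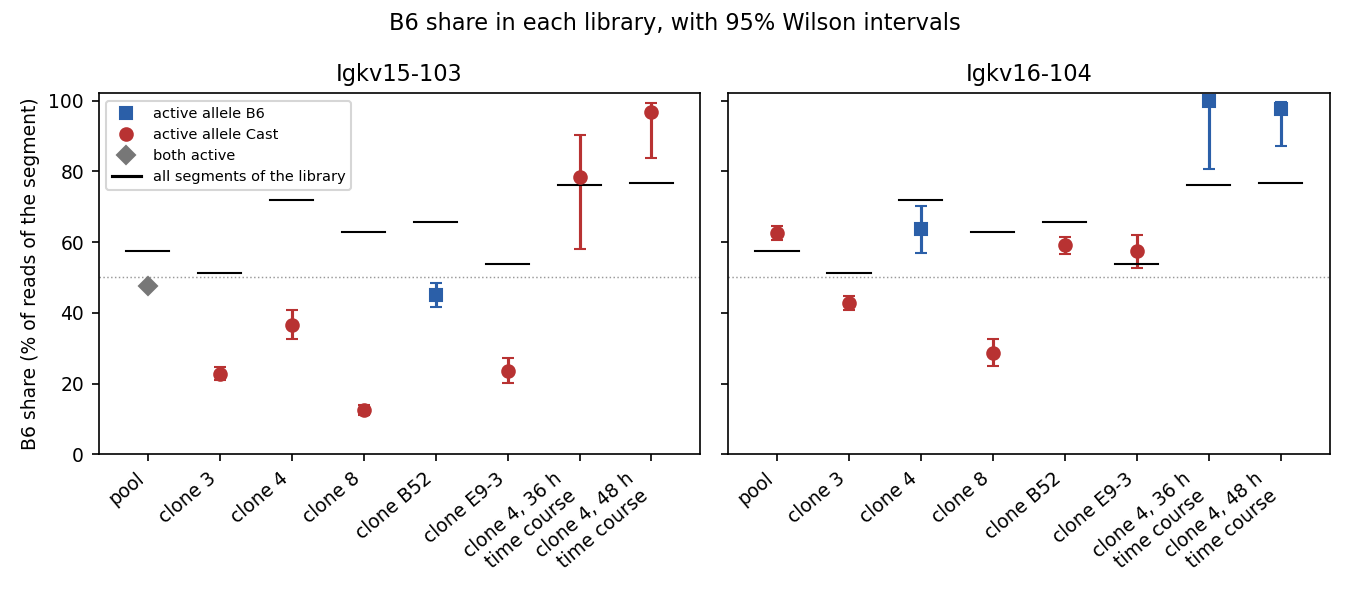
B6 share of Igkv15-103 (left) and Igkv16-104 (right), as a percent of the segment's reads, in the 48 h libraries and in the 36 and 48 h libraries of the clone 4 time course, with 95% Wilson intervals. Marker shape and colour give the allele that the study called active, and black lines the B6 share of all reads of the library. Igkv15-103 in clone B52, at 45.0%, is the highest of the clones in the 48 h table but below 50%, and both members are above 95% in the time course at 48 h.

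Both libraries of clone 4 at 48 h gave different allelic values for these segments, and for Igkv15-103 the difference was larger than that between any pair of clones in the 48 h table. In the 48 h table Igkv15-103 had 187 B6 and 324 Cast reads, whereas in the time course at 48 h it had 30 B6 reads and 1 Cast read. Its B6 share was thus 36.6% (interval 32.5 to 40.9) in the first and 96.8% (interval 83.8 to 99.4) in the second. For Igkv16-104 the reads were 125 B6 and 71 Cast in the 48 h table, and 39 B6 and 1 Cast in the time course. The shares were 63.8% (interval 56.8 to 70.2) and 97.5% (interval 87.1 to 99.6). The libraries as a whole were similar in allelic balance, with 71.8% and 76.7% of reads on B6.

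The rise of 60.2 points for Igkv15-103 was the largest difference in either direction among the 74 segments with at least 20 reads in both libraries, and the rise of 33.7 points for Igkv16-104 was the next largest rise. Over the 74 segments the mean difference was 2.00 points with an SD of 16.1, the median size was 7.90 points and the range was -43.2 to 60.2. Fisher's exact test gave exact adjusted p = 9.02e-11 for Igkv15-103 and 1.70e-05 for Igkv16-104 over 96 segments, of which 31.2% were called and 19.8% were called higher in the time course. With the excess variation taken from the same pair of libraries, in which the members are included, neither member was called, and 1.04% of segments were, with 0 of them higher in the time course. The cause was not tested. The methods name 2 read lengths without saying which libraries had which.

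**Figure D3:**
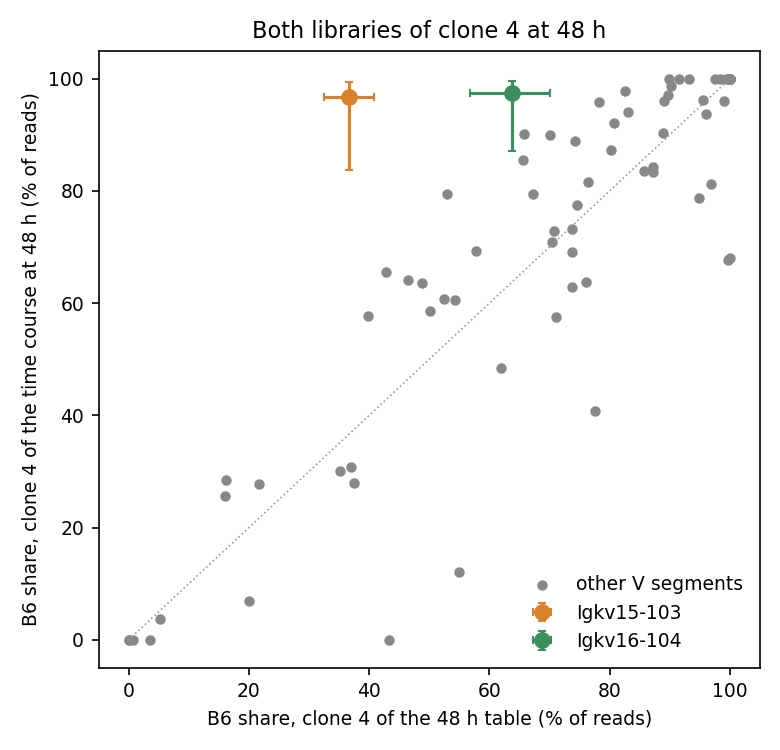
B6 share of each Vκ segment in clone 4 of the 48 h table (x axis) against clone 4 of the time course at 48 h (y axis), both as a percent of the segment's reads, for the 74 segments with at least 20 reads in both libraries. Error bars of the members are 95% Wilson intervals and the dotted line marks equal shares. Igkv15-103, at 36.6% and 96.8%, is the point farthest above the line.

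For Igkv15-103 the difference lay on the Cast allele, and for Igkv16-104 on both. The Cast contribution of Igkv15-103 was 0.501% in the 48 h table and 0.00913% in the time course, which was 54.9-fold lower (interval of the ratio 9.78 to 2175), where 54.9 Cast reads would have matched the first library and 1 was counted. By Fisher's exact test the exact adjusted p was 1.14e-19, and 33.3% of 63 segments were called lower on Cast. The B6 contribution was 0.289% and 0.274%, a ratio of 1.06 with an interval of 0.716 to 1.61 (exact adjusted p = 0.875). For Igkv16-104 the Cast contribution was 0.110% and 0.00913%, which was 12.0-fold lower in the time course (interval 2.09 to 482, exact adjusted p = 0.000732), where 12.0 reads would have matched and 1 was counted. Its B6 contribution was 0.193% and 0.356%, which was higher in the time course (exact adjusted p = 0.0035), as 31.2% of 93 segments were. None of these differences was called with excess variation. That factor is the mean chi-square of this same pair of libraries, so it cannot test them independently.

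None of the neighbours tested had a Cast contribution lower by as much. Of the 10 nearest counted segments, 5 on each side, 9 had enough reads for a test of the B6 share between these libraries, although Igkv11-106, with 0 B6 reads in both, could not differ. Of these, 3 were called higher and 1 lower in the time course by Fisher's exact test. Over all 96 segments tested 19.8% were called higher and 31.2% in either direction. With excess variation, estimated from this same pair of libraries, 0 of the 9 were called. For the Cast contribution 8 could be tested, of which 3 were called lower and 3 higher, beside 33.3% of 63 segments called lower. The next segment toward Jκ, Igkv14-100, had 139 Cast reads in the 48 h table and 10 in the time course, a contribution 2.36-fold lower (exact adjusted p = 0.00931). The next segment on the distal side, the pseudogene Igkv11-106, had 1393 and 331 Cast reads, a contribution that was higher in the time course (exact adjusted p = 2.87e-07), and 0 B6 reads in both libraries. Of the other 5 segments for which the study marked an active allele (Igkv6-32, Igkv7-33, Igkv18-36, Igkv4-91 and Igkv19-93), 1 was called higher in B6 share, Igkv6-32 at 80.8% and 92.2%, and 0 lower. Of those not called, Igkv7-33 was at 61.9% and 16.7% and Igkv18-36 at 51.2% and 16.7%, with 6 time-course reads each. Over all segments tested 19.8% were called higher in B6 share.

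**Figure D4:**
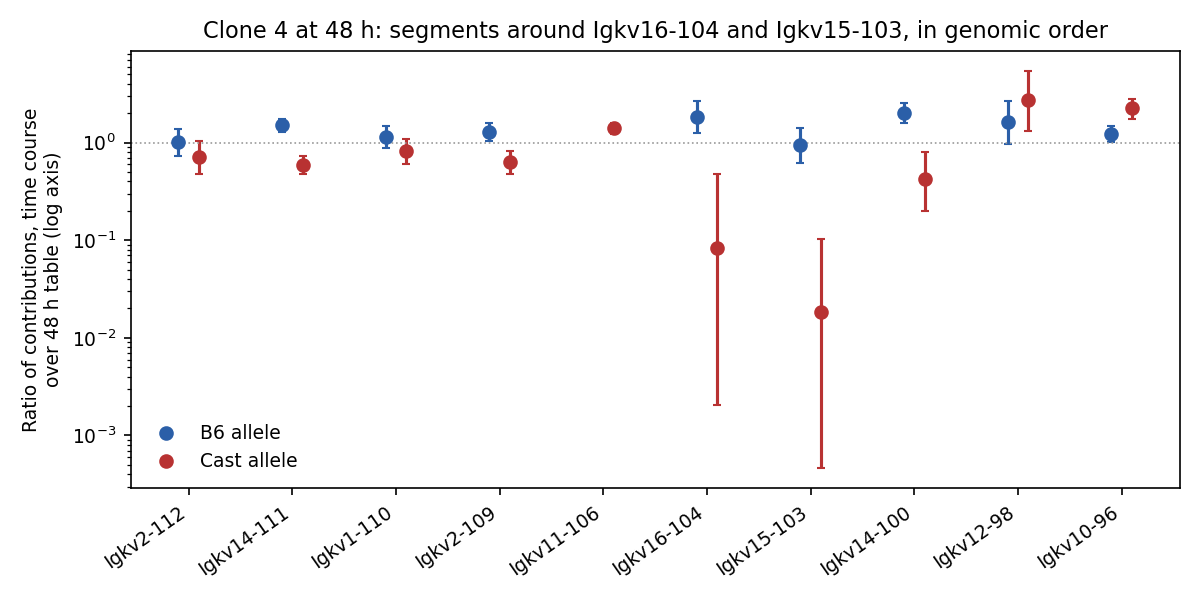
Ratio of contributions in clone 4 at 48 h, time course over 48 h table, on a log axis, for the members and their counted neighbours in genomic order, on B6 (blue) and Cast (red), with exact 95% intervals of the ratio. Segments and alleles with 0 reads in either library are left out, and the dotted line marks equal contributions. The Cast alleles of Igkv15-103 (54.9-fold lower, interval 9.78 to 2175) and Igkv16-104 (12.0-fold lower, interval 2.09 to 482) lie farthest below the line, each from 1 read in the time course.

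With the time-course library in place of the clone 4 library of the 48 h table, Igkv15-103 in clone 4 would have a majority on B6 against an active Cast allele, so that matches fell to 3 of 5. For Igkv16-104 4 of 4 pairs with clone 4 were called by Fisher's exact test, beside 49.7% of 378 such tests over all segments. With excess variation 0 of these 4 pairs were called, beside 5.29%.

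In the time course both segments were read mainly from B6 and reached the limit of 3 reads at 36 h. Igkv15-103 had 0 reads on either allele at 12 h, 2 B6 and 0 Cast reads at 24 h, 18 B6 and 5 Cast reads at 36 h, and 30 B6 reads and 1 Cast read at 48 h. Igkv16-104 had 0 reads at 12 and 24 h, 16 B6 and 0 Cast reads at 36 h, and 39 B6 reads and 1 Cast read at 48 h. At 12 and 24 h a limit of 3 reads allows contributions of up to 0.173% and 0.256%, so that levels such as those of 36 h, 0.254% and 0.226% on B6, could not have been told from 0 at 24 h.

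Both members first reached 3 reads on B6 at 36 h. Of the 83 segments with at least 3 B6 reads at 48 h, 30.1% reached 3 reads at 36 h after no read at 12 h. On Cast, Igkv15-103 reached 3 reads at 36 h only, and Igkv16-104 at no time. The B6 contribution was higher at 48 h than at 12 h by Fisher's exact test for Igkv15-103 (0.274% against 0, exact adjusted p = 0.0397) and Igkv16-104 (0.356% against 0, exact adjusted p = 0.0135), as it was for 63.9% of 61 segments. Neither call held when Igkv19-93, the most abundant segment at 12 h, was left out of the totals (exact adjusted p = 0.351 and 0.196), although the contributions at 48 h were then 0.301% and 0.391%, since this also leaves fewer reads at 12 h. Between 36 and 48 h, when 7.25% of segments were called higher on B6, neither member was called (exact adjusted p = 0.921 and 0.368).

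Already at 36 h the B6 share was 78.3% for Igkv15-103 (interval 58.1 to 90.3) and 100% for Igkv16-104 (16 of 16 reads, interval 80.6 to 100). Both were above the share in the clone 4 library of the 48 h table, with exact adjusted p = 0.000729 and 0.00827 by Fisher's exact test over 93 segments, of which 17.2% were called higher at 36 h. With excess variation neither was called, and 0 of the 93 segments were called higher. Within the time course the share of Igkv15-103 at 36 h and 48 h were not told apart by the same test (exact unadjusted p = 0.0728). At 36 h the share of Igkv15-103 was close to the 76.2% of its whole library, whereas that of Igkv16-104 was higher than in the rest of the library (exact unadjusted p = 0.018), as it was for 43.6% of 78 segments with at least 10 reads. At 48 h both members exceeded the rest of the library, with exact unadjusted p = 0.00471 for Igkv15-103 and 0.000525 for Igkv16-104, as did 42.9% of 84 segments.

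**Figure D5:**
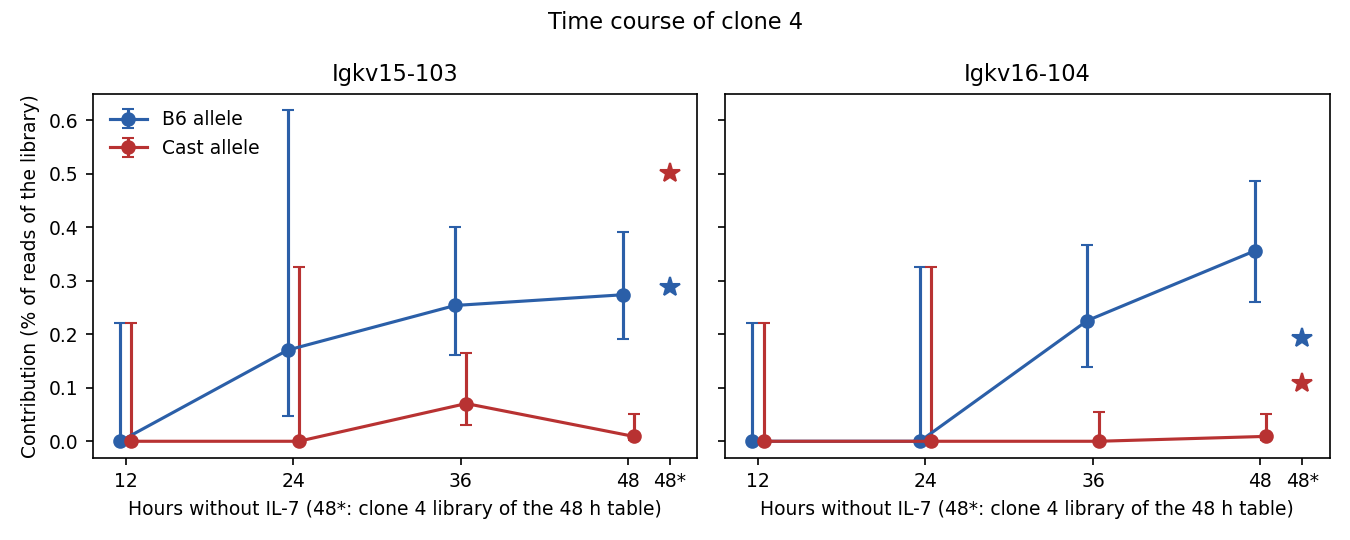
Contribution of Igkv15-103 (left) and Igkv16-104 (right) in clone 4 over hours without IL-7, on B6 (blue) and Cast (red), as a percent of all reads of the library with 95% Wilson intervals. Stars give the clone 4 library of the 48 h table. On B6 the members reach 0.274% and 0.356% at 48 h, while on Cast both are at 0.00913%, below the stars at 0.501% and 0.110%.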

How the data were processed

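Rearranged Igκ RNA was reverse transcribed from Cκ and amplified by ligation-mediated PCR (VJ-seq). The deposited values are raw read counts per segment and allele, which the authors made with HTseq-count from quality-trimmed paired reads after bowtie2 alignment to a combined genome of both strains. Program versions are not given in the sources used here. The submitters' processing notes name mm10.

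Contributions, B6 shares, 95% Wilson intervals and two-sided Fisher's exact tests with Benjamini-Hochberg adjustment (threshold 0.05) were computed from the counts with Python 3.11.15, NumPy 2.4.6, SciPy 1.17.1 and pandas 2.3.3. Identity was computed with Biopython 1.88 and figures with matplotlib 3.10.9. Segments needed at least 20 reads over both libraries of a pair for a test of the B6 share. Since no clone had replicates within a table, no count model was fitted, and an excess variation was instead estimated as the mean chi-square between both clone 4 libraries at 48 h. On simulated counts of clones 4 and B52 the test of shares called 25 of 30 changed segments and 0 of 68 unchanged, and the test of contributions 29 of 30 and 1 of 71. In these simulations no excess variation was added. The estimated excess variation was not scaled to the depth of other pairs.

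Active alleles were read from the study's summary picture. Segments named are the members, the 5 nearest counted segments on each side as a list, the other 5 segments with a marked active allele, and the 3 segments most like each member; Igkv14-100, Igkv11-106, Igkv6-32, Igkv7-33 and Igkv18-36 were given values after these were seen. The members, lists and tests were chosen with earlier results of these data known. Nuclear RNA-seq and ATAC-seq samples were not analysed here.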

Additional observations from a re-analysis of the deposited data

Results flagged for a closer look

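Between the time course at 48 h and the 48 h table, clone 4 differed in B6 share by 60.2 percentage points for Igkv15-103 and by 33.7 points for Igkv16-104, with exact adjusted p = 9.02e-11 and 1.70e-05 by Fisher's exact test, by which 31.2% of all segments tested were called. Neither was called with the excess variation, which was estimated from this same pair of libraries. The cause was not tested. The time-course values rest on 31 and 40 reads.

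Over both members, 4 of 20 pairs of clones were called both by Fisher's exact test and with the excess variation, close to the 15.4% of all 997 tests called with the excess variation. For Igkv15-103 the B6 share in clone B52 was 22.2 points above clone 3 and 32.6 points above clone 8, and the difference of clone 8 minus clone 4 was -24.2 points with the clone 4 library of the 48 h table and -84.4 points with that of the time course, each called by both tests. For Igkv15-103 in clones B52 and 3 the adjusted p by chi-square with the excess variation was 0.0441, near the threshold. For Igkv16-104 the share in clone B52 was 30.5 points above clone 8. Each of the other clones is represented by a single library.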

How the results depend on the processing

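No paired analysis was possible because each clone had 1 VJ-seq library per table. With each allele scaled to its own total, the excess of clone B52 for Igkv15-103 moved from 21.1 to 12.5 points (13.1 over segments read on both alleles), and that of clone 4 for Igkv16-104 from 16.8 to 1.58 (1.01). The pool shares moved to 40.4% and 55.4%, and the differences between both clone 4 libraries to 71.6 and 51.3 points. With clone 4 taken from the time course the excesses became 6.09 and 50.5 points. By Fisher's exact test 4 of 4 pairs with clone 4 were then called for each member, beside 49.7% of 378 such tests. With excess variation, added after seeing the data, 0 of these 4 pairs were called for Igkv16-104, beside 5.29% of such tests. For Igkv15-103 1 of 4 was called, that of clones 4 and 8, whereas that of clones 4 and B52 was not. Of the 4 pairs with clone B52, 1 was called for Igkv15-103 in this setting. Leaving out each other clone in turn gave 17.3 to 25.4 points for Igkv15-103 and 10.7 (without clone 8) to 20.8 for Igkv16-104, and for the ratio of the pool to the clones 2.87 to 3.49 and 0.495 to 0.82. With excess variation the pairs called fell to 2 of 4 for clone B52 and to 0 of 4 for clone 4, beside 15.4% of all tests. For contributions they fell from 29 and 30 to 12 and 15 of 30, beside 31.7% of all tests. The differences between both clone 4 libraries, 60.2 and 33.7 points, were no longer called, with a factor estimated from this same pair. This last alternative was chosen after seeing the data, as was the 36 h library in place of 48 h. The 36 h library gave 41.7 and 36.2 points, called by Fisher's exact test but not with excess variation. As a percent of its own allele, Igkv15-103 in the pool was at 6.19 times the clones on B6 and 2.05 times on Cast. Leaving Igkv19-93 out of the totals gave B6 contributions of 0.301% and 0.391% at 48 h, no longer called against 12 h. With 1 read as the limit Igkv15-103 first appeared on B6 at 24 h. Read minimums of 10 or 50 left the counts of called pairs of clones as they were, an exact interval was tried for the pool shares, and totals without the most abundant segments gave pool ratios of 2.99 and 0.537. Depth limits the time course, where each 48 h share rests on 1 Cast read.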
